A study of Mus musculus with 12 samples.

Results

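Whether the response of macrophages to bacterial lipopolysaccharide differs with the Hdac3 genotype was asked with the interaction of genotype and treatment. For each gene it is the log2 fold change on LPS in Lyz2-Cre-Hdac3f/f cells minus that in Hdac3f/f cells, from all 12 libraries of the series. Of 54532 genes in the table, 14286 had enough counts to be tested. The cells were bone marrow-derived macrophages (BMDM), grown from mouse tibia and femur marrow with 10 ng/ml macrophage colony-stimulating factor, which turns marrow precursors into macrophages. The donors were 8 weeks old. The 4 groups, of 3 libraries each, were Hdac3f/f cells in medium for 4 h, Hdac3f/f cells with 500 ng/ml LPS for 4 h, and Lyz2-Cre-Hdac3f/f cells (here Lyz2-Cre) treated in the same 2 ways. All groups carry the floxed Hdac3 allele, in which loxP sites flank part of the gene. In Lyz2-Cre cells the Cre recombinase is made from the Lyz2 locus, which is active in macrophages, neutrophils and some of their precursors, and no group holds Cre without the floxed allele. Whether replicates come from separate animals is not in the labels, so the p-values measure the spread between these libraries, which may be technical.

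Histone deacetylase 3 removes acetyl groups from histones and other proteins and works within corepressor complexes built on NCoR and SMRT. LPS is sensed by Toll-like receptor 4 with its partners CD14 and MD-2. The adaptor MyD88 leads from the receptor to NF-kB and AP-1, which turn on cytokine genes, and the adaptor TRIF leads to IRF3 and interferon beta. Secreted interferon beta then acts on the cells' own receptor, and the transcription factor complex that it activates binds the interferon-stimulated response element (ISRE) of antiviral genes. In the same hours macrophages slow their cell cycle and shut down many genes of the resting state.

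The promoters that follow show which of these elements stand before the start of genes on which the results turn. They hold the 250 bases upstream of the transcription start (RefSeq, GRCm38.p6, the assembly called mm10), 5′ to 3′ on the strand of the gene, with motif matches in capitals. The letters searched on both strands were GAAANNGAA for the ISRE core, GGNNTTTCC for NF-kB, TGANTCA for AP-1, TGACGTCA for the cyclic AMP response element (CRE) and CACGTG for the E-box. Rsad2, Isg15 and Oas1g are antiviral genes whose LPS response was smaller in Lyz2-Cre cells. They were chosen after their values were seen, by lowest p among those that held an ISRE core. Serpinb2, Arap2 and Ccr3 are among the genes with the highest interaction, and Il23r among those with the lowest. Windows without a match were passed over, so that each printed window holds one is no result.
Isg15 (chr4:156200819-156201068, minus strand): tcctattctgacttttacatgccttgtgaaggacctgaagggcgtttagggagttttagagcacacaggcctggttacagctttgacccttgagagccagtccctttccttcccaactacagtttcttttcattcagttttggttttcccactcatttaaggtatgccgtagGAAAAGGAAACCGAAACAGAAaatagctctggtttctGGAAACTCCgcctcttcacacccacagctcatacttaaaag
Rsad2 (chr12:26456453-26456702, minus strand): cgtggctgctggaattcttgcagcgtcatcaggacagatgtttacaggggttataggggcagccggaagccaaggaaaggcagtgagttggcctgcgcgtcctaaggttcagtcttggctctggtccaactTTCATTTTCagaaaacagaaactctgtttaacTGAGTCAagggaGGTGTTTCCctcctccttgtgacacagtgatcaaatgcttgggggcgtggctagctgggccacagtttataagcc
Oas1g (chr5:120887614-120887863, minus strand): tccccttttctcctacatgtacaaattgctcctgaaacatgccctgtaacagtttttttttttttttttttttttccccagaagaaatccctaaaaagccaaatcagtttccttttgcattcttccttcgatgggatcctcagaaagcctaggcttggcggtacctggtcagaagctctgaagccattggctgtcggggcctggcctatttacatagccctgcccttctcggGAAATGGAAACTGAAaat
Serpinb2 (chr1:107511173-107511422, plus strand): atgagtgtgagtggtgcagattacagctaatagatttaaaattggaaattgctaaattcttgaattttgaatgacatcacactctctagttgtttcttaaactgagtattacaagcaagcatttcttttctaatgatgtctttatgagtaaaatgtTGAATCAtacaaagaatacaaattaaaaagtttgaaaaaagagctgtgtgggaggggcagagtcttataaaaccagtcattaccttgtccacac
Arap2 (chr5:62766178-62766427, minus strand): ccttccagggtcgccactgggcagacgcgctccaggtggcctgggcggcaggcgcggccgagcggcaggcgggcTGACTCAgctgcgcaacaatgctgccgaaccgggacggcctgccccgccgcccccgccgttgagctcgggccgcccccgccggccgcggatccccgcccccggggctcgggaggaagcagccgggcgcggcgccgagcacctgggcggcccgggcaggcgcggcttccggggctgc
Ccr3 (chr9:124021721-124021970, plus strand): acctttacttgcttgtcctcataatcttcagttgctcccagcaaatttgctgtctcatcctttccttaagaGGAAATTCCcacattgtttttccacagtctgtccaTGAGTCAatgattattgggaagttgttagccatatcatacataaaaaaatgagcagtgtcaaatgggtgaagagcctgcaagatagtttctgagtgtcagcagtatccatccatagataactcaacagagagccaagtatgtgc
Il23r (chr6:67491856-67492105, minus strand): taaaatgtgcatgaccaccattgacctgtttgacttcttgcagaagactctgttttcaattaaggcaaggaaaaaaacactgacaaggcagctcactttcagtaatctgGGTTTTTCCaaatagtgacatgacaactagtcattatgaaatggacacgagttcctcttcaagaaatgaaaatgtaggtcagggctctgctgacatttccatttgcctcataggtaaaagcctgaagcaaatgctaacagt

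In the Isg15 window 3 overlapping ISRE cores began at positions -78, -72 and -66 from the start site, followed by an NF-kB match at -41. Oas1g held 2 overlapping ISRE cores at -18 and -12. Rsad2 held an ISRE core on the opposite strand at -119, an AP-1 match at -87 and an NF-kB match at -75. The windows of Serpinb2 (-94) and Arap2 (-176) held an AP-1 match each, that of Ccr3 an NF-kB (-179) and an AP-1 match (-144), and that of Il23r an NF-kB match (-141). A RefSeq window was matched by symbol for 10208 of 14283 tested symbols (71.5%).

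Before the comparison, the libraries themselves were checked. Totals ran from 16553432 to 18706990 counts and replicates of a group differed by more than counting noise. On the second axis of a principal component analysis Hdac3f/f LPS replicate 1 lay apart from its group (24.1 against 53.8 and 51.6). Hdac3 itself had an interaction of 0.04 ± 0.13 (log2 ± SE; adjusted p = 0.884, edgeR), with mean levels between 34.9 and 39.5 CPM (counts scaled to the size of the library) in the 4 groups. This count covers the whole gene and does not measure how far the floxed part was removed. Lyz2, which encodes lysozyme and carries the Cre, was at 31.0 CPM in untreated Lyz2-Cre replicate 1 and at 5181 and 5637 CPM in replicates 2 and 3, while LPS-treated Lyz2-Cre libraries held 6090, 6250 and 7728 CPM. That library therefore stands apart from its label's group in the gene that carries the Cre, and the counts of all genes called are also given without it.

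The LPS response was smaller in Lyz2-Cre cells for a broad set of inflammatory and interferon genes, and less negative for a set of cell cycle genes. At an adjusted p under 0.05 (edgeR quasi-likelihood test, Benjamini-Hochberg over all tested genes), 1160 genes were called (8.12%). Of these, 369 (2.58%) had a higher LPS response in Lyz2-Cre cells and 791 (5.54%) a lower one, and they are termed called higher and called lower below. The difference exceeded 1 on the log2 scale for 172 and 383 of them. Without untreated Lyz2-Cre replicate 1 the counts were 184 and 538. The split depends on the scale: with library totals in place of TMM factors the median interaction of all genes moved from 0.02 to 0.27, and 1134 genes were called higher and 448 lower. Values here are on the TMM scale, which centres most genes on no change.

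**Figure D1:**
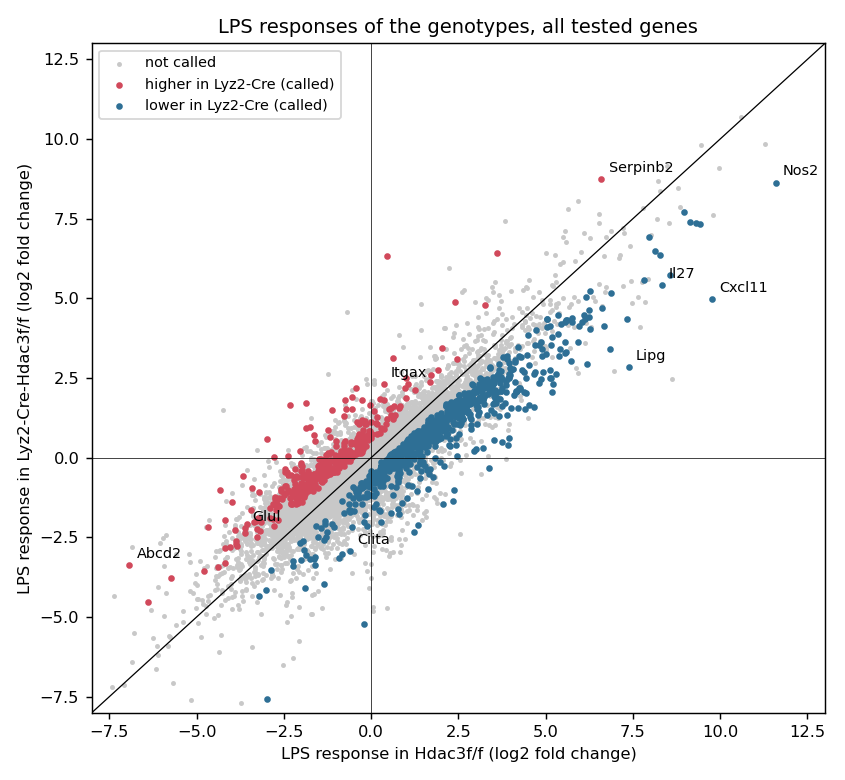
Each point is 1 of the 14286 tested genes, with its log2 fold change on LPS in Hdac3f/f cells on the x axis and in Lyz2-Cre-Hdac3f/f cells on the y axis. The diagonal marks equal responses; 791 genes called lower (blue) lie below it, mostly to the right of 0, and 369 called higher (red) lie above it.

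Genes whose mean LPS response over both genotypes was called and past 1 on the log2 scale show how the interaction lies on the response. Of 1989 genes raised by LPS, 444 (22.3%) were called lower and 25 (1.26%) higher, and 75.1% had an interaction below 0. Their median response was 2.01 in Hdac3f/f cells and 1.59 in Lyz2-Cre cells. Among 2644 genes lowered by LPS, 139 (5.26%) were called higher and 41 (1.55%) lower, and the median response was -1.78 against -1.45. In both classes the median response was thus nearer to 0 in Lyz2-Cre cells. With library totals alone, 219 raised genes were called lower and 595 lowered genes higher. The 444 fell to 276 without Hdac3f/f untreated replicate 2, to 283 without Hdac3f/f LPS replicate 3 and to 270 without Lyz2-Cre LPS replicate 1. The 139 was less stable: it was 302 without Hdac3f/f LPS replicate 1, 42 and 73 without the 2 libraries of Hdac3f/f just named, and between 64 and 87 without any 1 of untreated Lyz2-Cre replicates 1, 2 and 3 or LPS-treated Lyz2-Cre replicates 1 and 2.

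**Figure D2:**
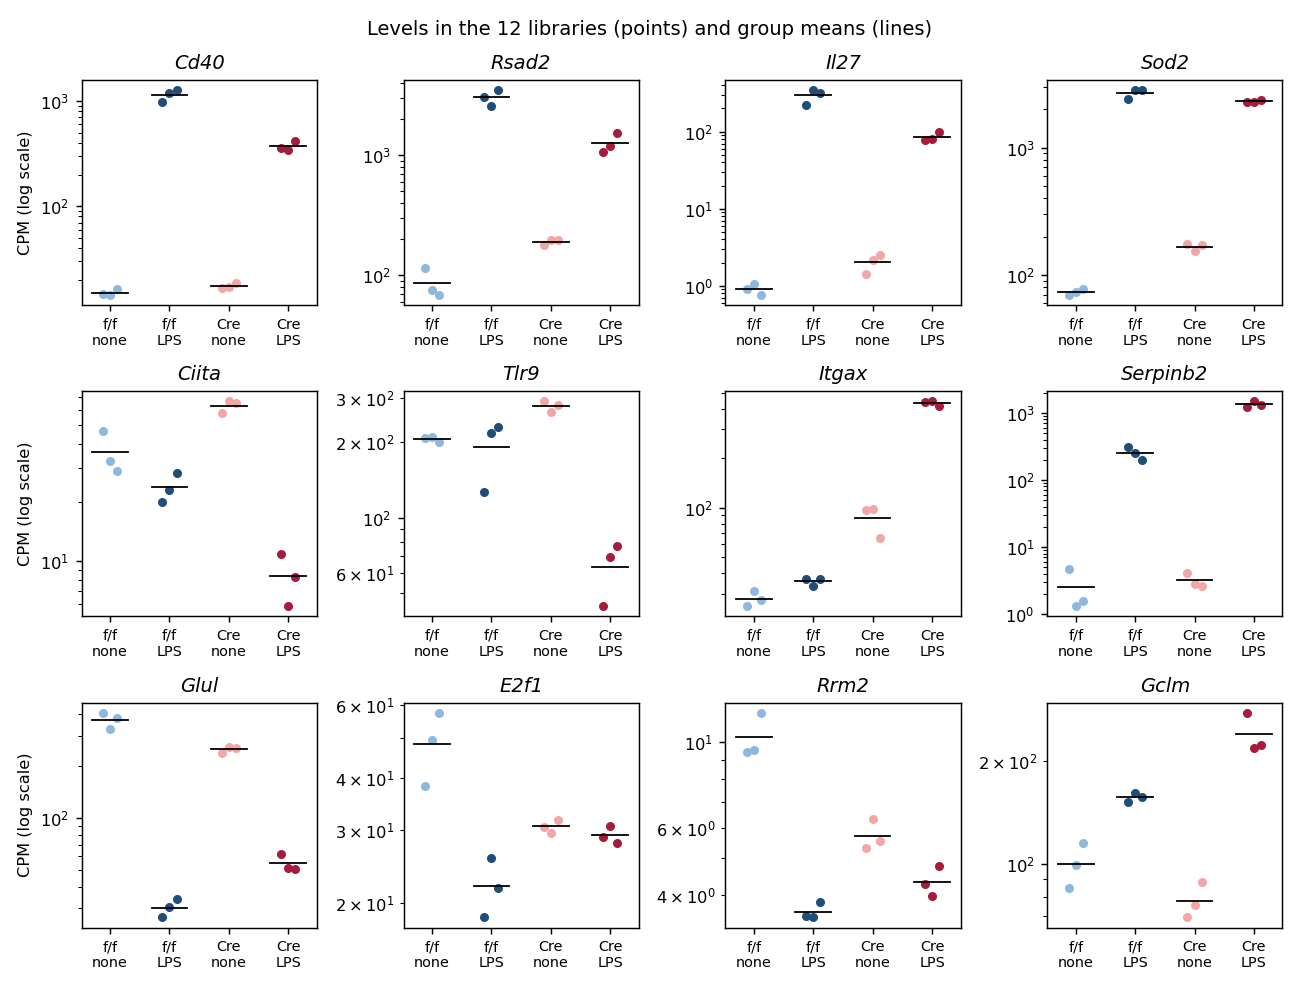
CPM (log scale) of 12 genes in the 12 libraries, by genotype (f/f, Hdac3f/f; Cre, Lyz2-Cre-Hdac3f/f) and treatment (none or 500 ng/ml LPS); points are libraries and lines the means of 3. In Cd40 the untreated groups are close and the LPS groups differ, in Sod2 the untreated groups differ more than the LPS groups, and in E2f1 the fall from 48.4 to 21.9 CPM in Hdac3f/f cells has a counterpart of 30.5 to 29.0 CPM in Lyz2-Cre cells.

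Among the strongly induced genes the levels show how far the genotypes differed without and with LPS. Cd40 and Sod2 are 2 examples, and several genes described below differed at both treatments. Cd40 (ENSMUSG00000017652, mm10 chromosome 2, 165055627 to 165072948), the costimulatory receptor for CD40 ligand of T cells, was at 14.7, 14.4 and 16.3 CPM in untreated and 982, 1198 and 1267 CPM in LPS-treated Hdac3f/f libraries, and 16.8, 17.1 and 18.8 CPM in untreated and 357, 345 and 414 CPM in LPS-treated Lyz2-Cre libraries. The untreated values lay within 14.4 to 18.8 CPM, with the Lyz2-Cre libraries slightly above all Hdac3f/f ones. Every LPS-treated Lyz2-Cre library lay below every LPS-treated Hdac3f/f library. Its interaction was -1.84 ± 0.17 (adjusted p = 0.000347, edgeR). Sod2 (ENSMUSG00000006818, mm10 chromosome 17, 13006846 to 13040063), the mitochondrial superoxide dismutase, was at 69.8, 73.8 and 77.2 CPM in untreated and 2396, 2822 and 2825 CPM in LPS-treated Hdac3f/f libraries, and 175, 155 and 171 CPM in untreated and 2292, 2289 and 2370.2 CPM in LPS-treated Lyz2-Cre libraries. Here the untreated Lyz2-Cre libraries already lay above the untreated Hdac3f/f libraries (difference 1.18 ± 0.10, adjusted p = 4.37e-05), and the levels with LPS differed by -0.21 ± 0.10 (adjusted p = 0.123). The interaction of Sod2 was -1.39 ± 0.14 (adjusted p = 0.000347). A lower call therefore does not by itself say that the induced level was lower. These genotype differences share libraries with the interaction and are given as values only.

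Cd69, an early activation marker, had the lowest p of the raised genes called lower. It was at 2.65, 2.0 and 2.05 CPM in untreated and 219, 221 and 249 CPM in LPS-treated Hdac3f/f libraries, and 4.71, 5.87 and 5.77 CPM in untreated and 101, 84 and 104 CPM in LPS-treated Lyz2-Cre libraries. Untreated Lyz2-Cre libraries lay above and LPS-treated ones below their Hdac3f/f counterparts, without overlap, and the interaction was -2.54 ± 0.20 (adjusted p = 0.000164). Slamf8, a receptor of the SLAM family, showed the same order of groups, with means (± SD, n = 3, here and for all means that follow) of 31.6 ± 1.19 (untreated) and 409 ± 76.5 CPM (LPS) in Hdac3f/f and 62.6 ± 3.38 and 222 ± 15.7 CPM in Lyz2-Cre cells. The interaction was -1.87 ± 0.18. Slc7a8, which encodes a transporter of neutral amino acids, had means of 169 ± 6.7 (untreated) and 771 ± 84.2 CPM (LPS) in Hdac3f/f and 265 ± 11.4 and 444 ± 9.32 CPM in Lyz2-Cre cells. The interaction of Slc7a8 was -1.44 ± 0.14.

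Cytokine genes made up the first group examined. Of 29 tested inflammatory cytokines and chemokines, 12 were called lower and none higher, against 5.54% of all genes lower, and 28 of 29 values lay below 0. No member of this list, or of the interferon signalling, antiviral, GTPase, antigen presentation and nitric oxide lists that follow, was higher at an unadjusted p under 0.05 either; in the NF-kB and immediate early lists 1 and 2 were. Every one of the 29 rose on LPS in both genotypes, where of all genes 60.1% were called in Hdac3f/f (28% rose) and 52.9% in Lyz2-Cre cells (25.2% rose). Their median log2 response was 5.38 in Hdac3f/f and 4.55 in Lyz2-Cre cells. The median interaction was -1.03, against 0.02 over all genes. Il27 (ENSMUSG00000044701, mm10 chromosome 7, 126589010 to 126594941), which encodes the p28 chain of interleukin 27, was at 0.911, 1.07 and 0.767 CPM in untreated and 222, 345 and 321 CPM in LPS-treated Hdac3f/f libraries, and 1.41, 2.18 and 2.49 CPM in untreated and 78.8, 81.2 and 98.3 CPM in LPS-treated Lyz2-Cre libraries. LPS-treated Lyz2-Cre libraries reached less than the lowest LPS-treated Hdac3f/f library, while all untreated Lyz2-Cre libraries lay above the untreated Hdac3f/f ones. The interaction of Il27 was -2.92 ± 0.33 (adjusted p = 0.000549, edgeR). Ebi3, which encodes the other chain of interleukin 27, had means of 41.5 ± 6.48 (untreated) and 223 ± 17.3 CPM (LPS) in Hdac3f/f and 52.1 ± 4.76 and 134 ± 3.13 CPM in Lyz2-Cre cells. The interaction of Ebi3 was -1.06 ± 0.17. Il15, a growth factor of NK and memory T cells, had means of 12.1 ± 0.703 (untreated) and 104 ± 14.6 CPM (LPS) in Hdac3f/f and 16.9 ± 1.63 and 45.1 ± 11 CPM in Lyz2-Cre cells. The interaction of Il15 was -1.68 ± 0.23. Il18, the precursor of an interferon gamma-inducing cytokine, had means of 5.67 ± 0.658 (untreated) and 66.7 ± 13.6 CPM (LPS) in Hdac3f/f and 8.07 ± 1.81 and 29.3 ± 1.62 CPM in Lyz2-Cre cells. The interaction was -1.69 ± 0.25.

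The other members called lower were Ccl7, Ccl22, Ccl5, Ccl2, Tnfsf15, Cxcl16, Tnf and Cxcl2. Il1b and Ccl3 were the members not called with the highest levels. Il1b, the interleukin 1 beta precursor, was at 1.26, 1.02 and 0.409 CPM in untreated and 2378, 2030.5 and 2485 CPM in LPS-treated Hdac3f/f libraries, and 2.28, 0.979 and 4.63 CPM in untreated and 2508, 2297 and 2405 CPM in LPS-treated Lyz2-Cre libraries. With LPS its libraries overlapped between the genotypes, and its interaction of -1.44 ± 0.56 (adjusted p = 0.139) rested on untreated levels under 5 CPM. Ccl3, a chemokine for monocytes and T cells, had an interaction of -0.16 ± 0.33 (adjusted p = 0.824) although its means of 55.6 ± 7.29 (untreated) and 1924 ± 369 CPM (LPS) in Hdac3f/f and 31.6 ± 7.76 and 980.1 ± 279 CPM in Lyz2-Cre cells were lower in Lyz2-Cre cells at both treatments. With 1 library left out at a time, between 10 and 13 members were called lower, and with library totals alone 11 were.

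Most antiviral interferon-stimulated genes act inside infected cells against viruses, and the list used here also holds the chemokine genes Cxcl10 and Cxcl11. All 38 tested members rose on LPS in Hdac3f/f cells and 36 in Lyz2-Cre cells, with median responses of 2.34 and 1.36. All 38 interactions lay below 0 (37 of 38 with library totals alone), with a median of -0.94, and 21 of them were called lower. Rsad2 (ENSMUSG00000020641, mm10 chromosome 12, 26442746 to 26456452), the radical SAM enzyme viperin, was at 115, 74.5 and 68.6 CPM in untreated and 3021, 2583 and 3475 CPM in LPS-treated Hdac3f/f libraries, and 177, 195 and 195 CPM in untreated and 1059, 1191 and 1537 CPM in LPS-treated Lyz2-Cre libraries. Untreated Lyz2-Cre libraries lay above all untreated Hdac3f/f libraries and LPS-treated ones below all LPS-treated Hdac3f/f libraries, and the interaction was -2.40 ± 0.28 (adjusted p = 0.000568). Cmpk2, the mitochondrial nucleotide kinase that neighbours Rsad2 on chromosome 12, had means of 57.2 ± 8.25 (untreated) and 2743 ± 368 CPM (LPS) in Hdac3f/f and 101 ± 14.8 and 1014 ± 331 CPM in Lyz2-Cre cells. The interaction of Cmpk2 was -2.26 ± 0.29. Isg20, an exonuclease of viral RNA, had means of 18 ± 1.4 (untreated) and 632 ± 144 CPM (LPS) in Hdac3f/f and 30.2 ± 2.01 and 169 ± 56.1 CPM in Lyz2-Cre cells. The interaction of Isg20 was -2.64 ± 0.30. Oasl1, a member of the oligoadenylate synthetase family, had means of 147 ± 11.9 (untreated) and 2791 ± 609 CPM (LPS) in Hdac3f/f and 266 ± 27.9 and 1204 ± 329.5 CPM in Lyz2-Cre cells. The interaction of Oasl1 was -2.07 ± 0.29.

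Isg15 (ENSMUSG00000035692, mm10 chromosome 4, 156199424 to 156200818), the ubiquitin-like modifier whose promoter with 3 ISRE cores is printed above, was at 59.1, 53.3 and 53.3 CPM in untreated and 1372, 1946 and 1982 CPM in LPS-treated Hdac3f/f libraries, and 76.5, 81 and 111 CPM in untreated and 709.9, 773 and 1079.6 CPM in LPS-treated Lyz2-Cre libraries and had an interaction of -1.75 ± 0.27 (adjusted p = 0.00304). Oas1g had means of 75.3 ± 3.04 (untreated) and 389 ± 63.5 CPM (LPS) in Hdac3f/f and 99.1 ± 7.14 and 205 ± 36.6 CPM in Lyz2-Cre cells and an interaction of -1.32 ± 0.20; it has near-identical neighbours in the Oas1 cluster, and how shared reads were counted is not given in the sources used here. In the same list 18 genes were higher in untreated Lyz2-Cre than untreated Hdac3f/f cells (5.12% of all genes were) and 21 were lower with LPS (16.9% of all genes were, of 32.6% called in either direction). The other members called lower were Dhx58, Trim25, Zbp1, Cxcl11, Mx2, Oas1a, Ifi205, Oas3, Cxcl10, Ifit3, Mx1, Samhd1, Ifit2, Rtp4 and Ifit3b. Bst2, the membrane tether of virions, and Ifi204, a DNA sensor of the interferon-inducible family, were the members not called with the highest levels, at interactions of -0.60 ± 0.24 and -0.34 ± 0.19 (adjusted p = 0.16 and 0.321). Leaving out 1 library at a time gave between 17 and 27 members called lower.

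Cxcl11 (ENSMUSG00000060183, mm10 chromosome 5, 92359544 to 92365485), a chemokine for CXCR3-bearing T cells, had the lowest interaction of the called genes that reached 5 CPM in a group. It was at 0.173, 0 and 0.102 CPM in untreated and 66.1, 72.2 and 127 CPM in LPS-treated Hdac3f/f libraries, and 0.389, 0.534 and 0.945 CPM in untreated and 14.5, 16.9 and 27.5 CPM in LPS-treated Lyz2-Cre libraries. Untreated levels were under 1 CPM in all 6 libraries and higher in Lyz2-Cre, and LPS-treated Lyz2-Cre libraries stayed below every LPS-treated Hdac3f/f library. The interaction was -4.79 ± 0.86 (adjusted p = 0.00546), and its size rests on the few untreated counts.

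The list of type I interferon signalling holds regulators of these targets, some of them raised by LPS themselves. It also holds Ifngr2, a chain of the interferon gamma receptor. Of 21 type I interferon signalling genes 10 were called lower and none higher, with a median of -0.75. Irf1 (ENSMUSG00000018899, mm10 chromosome 11, 53770014 to 53778374), a transcription factor of interferon responses, was at 77.9, 69 and 75.2 CPM in untreated and 1011, 1069 and 1320.4 CPM in LPS-treated Hdac3f/f libraries, and 90.4, 95.7 and 128 CPM in untreated and 631, 578 and 609 CPM in LPS-treated Lyz2-Cre libraries. All LPS-treated Lyz2-Cre libraries lay below all LPS-treated Hdac3f/f libraries, and all untreated ones above the untreated Hdac3f/f libraries. The interaction of Irf1 was -1.40 ± 0.20 (adjusted p = 0.00159, edgeR). Usp18, which removes ISG15 and dampens receptor signalling, had means of 51.7 ± 7.14 (untreated) and 787 ± 92.4 CPM (LPS) in Hdac3f/f and 89.8 ± 5.56 and 510.1 ± 84.8 CPM in Lyz2-Cre cells. The interaction was -1.42 ± 0.20. Stat2, a subunit of the ISRE-binding complex, had means of 171 ± 26.6 (untreated) and 565 ± 37 CPM (LPS) in Hdac3f/f and 258 ± 18.9 and 429 ± 19.3 CPM in Lyz2-Cre cells. The interaction of Stat2 was -0.99 ± 0.16. Irf7, which amplifies interferon production, had means of 967 ± 93.1 (untreated) and 3351 ± 493 CPM (LPS) in Hdac3f/f and 1232 ± 78.5 and 1936 ± 312 CPM in Lyz2-Cre cells. The interaction of Irf7 was -1.14 ± 0.20.

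Tyk2, Stat3, Ifngr2, Irf5, Irf8 and Ifnb1 were the other called members. Ifnb1 itself, interferon beta, stayed under 3 CPM in every library: it was at 0.173, 0.0487 and 0.102 CPM in untreated and 0.625, 2.26 and 1.16 CPM in LPS-treated Hdac3f/f libraries, and 0.437, 0.667 and 0.497 CPM in untreated and 0.604, 0.809 and 0.941 CPM in LPS-treated Lyz2-Cre libraries, with an interaction of -2.98 ± 0.76 (adjusted p = 0.0315), and the LPS-treated groups overlapped. The count of 10 is not stable: it was 5 without Hdac3f/f untreated replicate 2, Hdac3f/f LPS replicate 3 or Lyz2-Cre LPS replicate 1, and 6 without untreated Lyz2-Cre replicate 1 or 3 or Lyz2-Cre LPS replicate 2.

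Interferon-inducible GTPases, which attack the vacuoles of intracellular pathogens, form a related group. Of 16 tested members 8 were called lower and none higher, all 16 values lay below 0, and the median was -1.01. Gbp4 was at 9.85, 5.45 and 4.7 CPM in untreated and 153, 95.1 and 189.6 CPM in LPS-treated Hdac3f/f libraries, and 18.9, 23.1 and 26.7 CPM in untreated and 135, 128 and 129 CPM in LPS-treated Lyz2-Cre libraries. Its LPS-treated libraries overlapped between the genotypes, and the untreated Lyz2-Cre libraries lay above all untreated Hdac3f/f libraries; the interaction was -1.93 ± 0.38 (adjusted p = 0.00854). Gbp3 had means of 20.6 ± 7.59 (untreated) and 412 ± 93.4 CPM (LPS) in Hdac3f/f and 48 ± 4.63 and 323 ± 8.2 CPM in Lyz2-Cre cells and an interaction of -1.57 ± 0.31, and Ifi35, which encodes an interferon-induced leucine zipper protein placed in this list, had means of 34.8 ± 1.21 (untreated) and 282 ± 45.2 CPM (LPS) in Hdac3f/f and 43.2 ± 5.24 and 144 ± 27.3 CPM in Lyz2-Cre cells. The interaction of Ifi35 was -1.29 ± 0.21. In this list 11 genes were higher in untreated Lyz2-Cre cells (5.12% of all genes were) and 3 were lower with LPS, close to the share of all genes (16.9%). Igtp (-1.04 ± 0.20) overlaps Irgm2 on chromosome 11, so that reads of the pair may be shared, and its call was lost with library totals alone. Without Hdac3f/f untreated replicate 1 the members called lower numbered 14, and without any other single library between 7 and 9. With library totals alone 5 were called lower and with no filter on low counts 15.

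**Figure D3:**
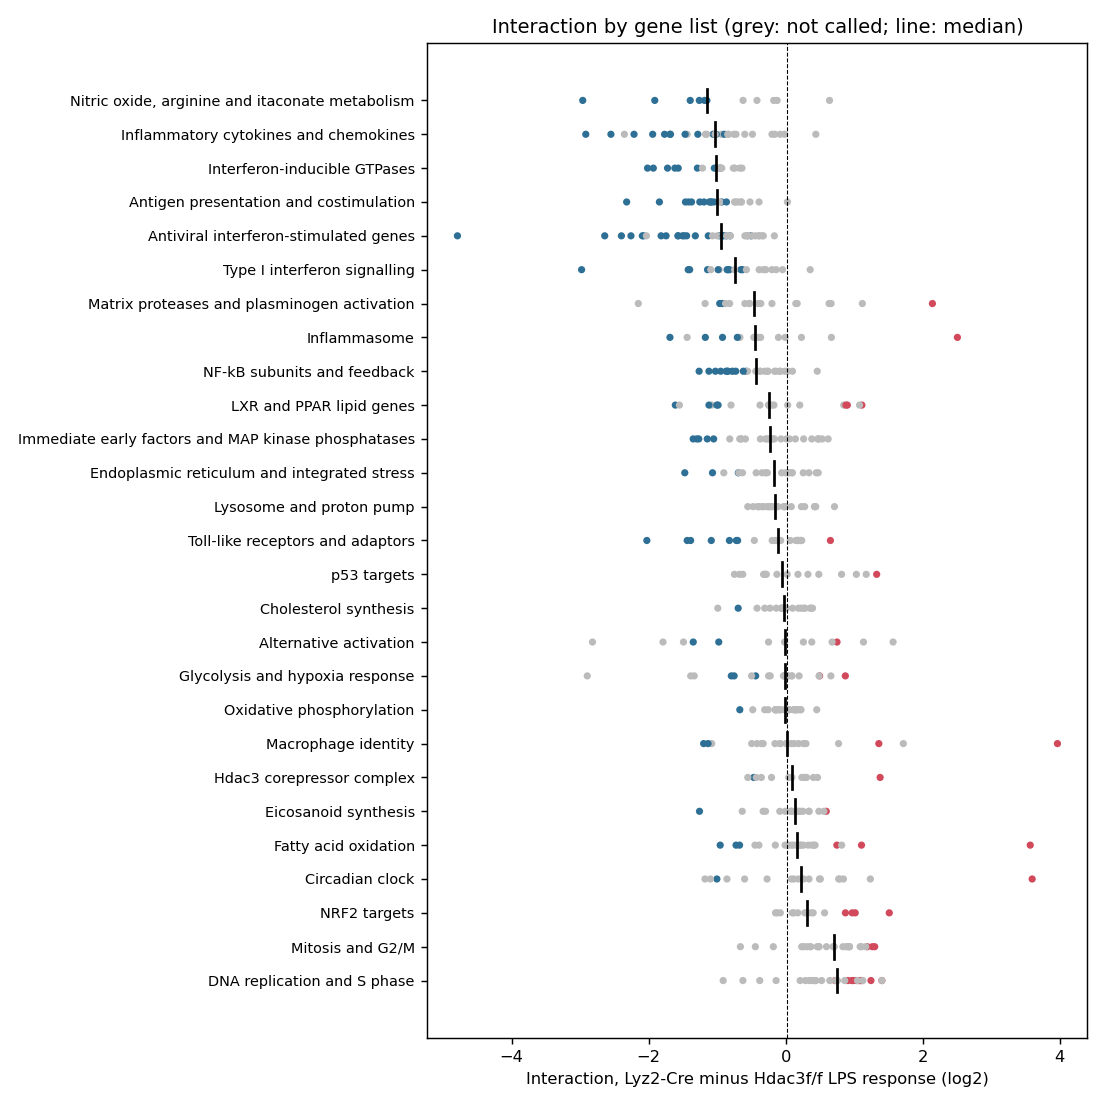
Interaction (log2, x axis) of each tested member of 27 gene lists, ordered by the median (black bar); blue and red points are members called lower and higher, grey ones were not called, and the dashed line is the median of all tested genes (0.02). Interferon, cytokine, antigen presentation and nitric oxide lists lie to the left of it and the lists of S phase and mitosis to the right.

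Feedback and subunit genes of NF-kB were induced in both genotypes, and less in Lyz2-Cre cells for some. Of 27 tested, 11 were called lower and none higher (7 lower and 1 higher with library totals alone), and the median was -0.44. Traf1 (ENSMUSG00000026875, mm10 chromosome 2, 34941750 to 34961772), an adaptor of the TNF receptor family, was at 14.2, 14.5 and 15.6 CPM in untreated and 674, 758 and 674 CPM in LPS-treated Hdac3f/f libraries, and 16.5, 17.6 and 17.8 CPM in untreated and 315, 349.6 and 363 CPM in LPS-treated Lyz2-Cre libraries. Untreated levels were close, though slightly higher in all Lyz2-Cre libraries, and the LPS-treated libraries did not overlap. The interaction of Traf1 was -1.26 ± 0.13 (adjusted p = 0.000382, edgeR). Irak2, a kinase of the MyD88 complex, had means of 31.6 ± 0.819 (untreated) and 335 ± 22.2 CPM (LPS) in Hdac3f/f and 40.9 ± 6.35 and 213 ± 3.2 CPM in Lyz2-Cre cells. The interaction was -1.03 ± 0.15. Peli1, a ubiquitin ligase of the same pathway, had means of 39 ± 5.62 (untreated) and 257 ± 20.4 CPM (LPS) in Hdac3f/f and 58.2 ± 2.83 and 199 ± 7.28 CPM in Lyz2-Cre cells. The interaction of Peli1 was -0.95 ± 0.15. Nfkbia, the inhibitor that holds NF-kB in the cytoplasm, had means of 31.6 ± 1.7 (untreated) and 1297 ± 124 CPM (LPS) in Hdac3f/f and 33.9 ± 5.09 and 760.2 ± 57.2 CPM in Lyz2-Cre cells. The interaction of Nfkbia was -0.87 ± 0.17. Ikbke, Traf2, Bcl3, Zfp36, Nfkbid, Nfkbie and Tnip1 were called lower as well. Nfkb2, a subunit of NF-kB (-0.44 ± 0.19, adjusted p = 0.177), and Tnfaip3, the feedback inhibitor A20 (-0.56 ± 0.18, adjusted p = 0.0731), were not called. The 11 fell to 6 without Hdac3f/f untreated replicate 2 or Hdac3f/f LPS replicate 3 and to 7 without untreated Lyz2-Cre replicate 1 or 3 or LPS-treated Lyz2-Cre replicate 1 or 2.

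Immediate early factors and MAP kinase phosphatases are the first genes that signalling turns on. Of 28 tested, 5 were called lower (Egr1, Ier2, Dusp2, Nr4a3 and Ier3) and none higher, and the median was -0.23, which turned to 0.03 with library totals alone. Over all genes 5.54% were called lower, and among genes raised by LPS 22.3%. In Hdac3f/f cells 24 of the 28 rose, so the 5 calls are not above the share of raised genes. Egr1, a zinc finger factor, was at 13.5, 8.52 and 10.1 CPM in untreated and 90.9, 103 and 101 CPM in LPS-treated Hdac3f/f libraries, and 7.04, 6.14 and 5.72 CPM in untreated and 23.2, 18.4 and 26.3 CPM in LPS-treated Lyz2-Cre libraries. LPS-treated Lyz2-Cre libraries lay far below the LPS-treated Hdac3f/f ones and the untreated libraries were lower too, and the interaction was -1.35 ± 0.24 (adjusted p = 0.00565). Dusp2, a phosphatase of MAP kinases, had means of 6.77 ± 0.462 (untreated) and 329 ± 64.2 CPM (LPS) in Hdac3f/f and 4.56 ± 0.465 and 92.2 ± 21.1 CPM in Lyz2-Cre cells. The interaction of Dusp2 was -1.27 ± 0.27. Between 3 and 8 members were called lower with 1 library left out: 8 without Hdac3f/f LPS replicate 1, and 3 without Hdac3f/f untreated replicate 3, Hdac3f/f LPS replicates 2 or 3, untreated Lyz2-Cre replicate 3 or LPS-treated Lyz2-Cre replicates 1 or 2.

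Sensors of microbes gave 8 calls. Among 23 Toll-like receptors, related sensors and adaptors, 7 were called lower (Nod2, Nod1, Tlr9, Myd88, Ripk2, Ticam1 and Tlr3) and 1 higher, and the median was -0.12, or 0.13 with library totals alone. Nod1 and Nod2 sense fragments of bacterial peptidoglycan. Nod1 (ENSMUSG00000038058, mm10 chromosome 6, 54923949 to 54972612) was at 65.3, 58.9 and 61.2 CPM in untreated and 344, 404 and 412 CPM in LPS-treated Hdac3f/f libraries, and 69.8, 77.9 and 79.7 CPM in untreated and 192, 169 and 164 CPM in LPS-treated Lyz2-Cre libraries. Neither the untreated groups, higher in Lyz2-Cre, nor the LPS-treated groups, lower in Lyz2-Cre, overlapped. The interaction of Nod1 was -1.44 ± 0.15 (adjusted p = 0.000347, edgeR). Nod2 had means of 9.39 ± 0.828 (untreated) and 147 ± 4.23 CPM (LPS) in Hdac3f/f and 15.5 ± 0.989 and 92.7 ± 3.06 CPM in Lyz2-Cre cells. The interaction was -1.39 ± 0.13. Tlr9, the endosomal receptor for bacterial DNA, was at 208, 210.3 and 201 CPM in untreated and 127, 219 and 230.5 CPM in LPS-treated Hdac3f/f libraries, and 292, 263 and 282 CPM in untreated and 44.3, 69.7 and 76.9 CPM in LPS-treated Lyz2-Cre libraries. In Hdac3f/f cells its response was not called (-0.11 ± 0.21, adjusted p = 0.693), in Lyz2-Cre cells it fell by 2.13 on the log2 scale, and the interaction was -2.03 ± 0.31 (adjusted p = 0.0024).

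Tlr4, the LPS receptor, was the member called higher. It was at 71.7, 64.2 and 57.3 CPM in untreated and 40.8, 29 and 33.2 CPM in LPS-treated Hdac3f/f libraries, and 74.5, 71.1 and 76.4 CPM in untreated and 65.5, 58.3 and 62 CPM in LPS-treated Lyz2-Cre libraries. Hdac3f/f cells lost part of the transcript on LPS while Lyz2-Cre cells kept most of it, with an interaction of 0.65 ± 0.18 (adjusted p = 0.0425); the call was lost in 10 of 12 fits that left out 1 library and held without Hdac3f/f untreated replicate 3 and Hdac3f/f LPS replicate 1. Cd14 (0.23 ± 0.29, adjusted p = 0.688) and Tlr2 (-0.15 ± 0.19, adjusted p = 0.687) were the members not called with the highest levels. The 7 lower calls fell to 3 without Hdac3f/f LPS replicate 3, untreated Lyz2-Cre replicate 3 or LPS-treated Lyz2-Cre replicates 1 or 2, and to 4 without Hdac3f/f untreated replicate 2, Hdac3f/f LPS replicate 2 or untreated Lyz2-Cre replicates 1 or 2.

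Inflammasome genes, which cut cytokine precursors and open pores in the membrane, gave 4 lower calls and 1 higher call of 16 (median -0.45). Gsdmd, the pore-forming gasdermin D, was at 68.3, 70.8 and 74.5 CPM in untreated and 224, 280.2 and 283 CPM in LPS-treated Hdac3f/f libraries, and 87, 81.7 and 101 CPM in untreated and 138, 144 and 159.6 CPM in LPS-treated Lyz2-Cre libraries. Neither the untreated groups, higher in Lyz2-Cre, nor the LPS-treated groups, lower in Lyz2-Cre, overlapped. The interaction of Gsdmd was -1.17 ± 0.16 (adjusted p = 0.00159, edgeR). Il18, Mefv, which encodes pyrin (-0.92 ± 0.23), and Pycard, the adaptor ASC (-0.71 ± 0.17), were the others called lower, and Nlrp1b the one called higher. Nlrp3, the sensor at the highest level with LPS (means of 24.8 ± 3.5 (untreated) and 967 ± 86.7 CPM (LPS) in Hdac3f/f and 26.8 ± 3.69 and 760.1 ± 35.1 CPM in Lyz2-Cre cells), was not called (-0.45 ± 0.18, adjusted p = 0.152). Lower calls fell to 2 with library totals alone and without Hdac3f/f untreated replicates 2 or 3, Hdac3f/f LPS replicate 3, untreated Lyz2-Cre replicates 1 or 3 or Lyz2-Cre LPS replicate 1.

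Antigen presentation and costimulation held the largest share of lower calls among lists of more than 20 genes. Of 22 tested, 13 were called lower and none higher, 21 values lay below 0, and the median was -1.0. Besides Cd40, the list holds Ciita (ENSMUSG00000022504, mm10 chromosome 16, 10480059 to 10528418), the master transactivator of MHC class II genes. Ciita was at 46.9, 32.9 and 28.9 CPM in untreated and 20.1, 23.3 and 28.3 CPM in LPS-treated Hdac3f/f libraries, and 57.9, 66.4 and 65.1 CPM in untreated and 10.9, 5.84 and 8.28 CPM in LPS-treated Lyz2-Cre libraries. The order of the groups reversed with LPS: untreated Lyz2-Cre libraries were the highest and LPS-treated Lyz2-Cre libraries the lowest, and the interaction was -2.32 ± 0.31 (adjusted p = 0.00131). Tap2, a subunit of the peptide transporter of MHC class I loading, had means of 95.4 ± 5.5 (untreated) and 556 ± 90.5 CPM (LPS) in Hdac3f/f and 120.2 ± 9.41 and 294 ± 25.6 CPM in Lyz2-Cre cells. The interaction of Tap2 was -1.25 ± 0.18. Cd274, the inhibitory ligand PD-L1, had means of 103 ± 18.1 (untreated) and 1338 ± 257 CPM (LPS) in Hdac3f/f and 278 ± 26.4 and 1397 ± 97.1 CPM in Lyz2-Cre cells and an interaction of -1.37 ± 0.22, with LPS-treated levels that overlapped between the genotypes. Psmb8, Psmb9, Psmb10, Tap1, Tapbp and Nlrc5 of the class I pathway, H2-DMa and H2-DMb1 of the class II pathway and the costimulatory gene Cd86 were called lower too. H2-K1 (-0.73 ± 0.28, adjusted p = 0.136) and H2-D1 (-0.69 ± 0.33, adjusted p = 0.234), the class I heavy chains, were not called. Between 9 and 16 members were called lower with 1 library left out, and 11 with library totals alone.

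Enzymes that make nitric oxide and itaconate and handle arginine followed, in a list that also holds Sod2, the mitochondrial superoxide dismutase, and amino acid transporters. Of 11 tested members 6 were called lower (Sod2, Acod1, Nos2, Ass1, Gch1 and Arg2) and none higher, and the median was -1.15. Nos2 (ENSMUSG00000020826, mm10 chromosome 11, 78920787 to 78960254), the inducible nitric oxide synthase, was at 1.39, 0.292 and 0.563 CPM in untreated and 1765, 2021 and 3396 CPM in LPS-treated Hdac3f/f libraries, and 5.93, 4.98 and 3.43 CPM in untreated and 1430.1, 2186 and 2081 CPM in LPS-treated Lyz2-Cre libraries. With LPS the groups overlapped, and the interaction of -2.96 ± 0.54 (adjusted p = 0.00624) came with untreated levels of 3.43 to 5.93 CPM in Lyz2-Cre against at most 1.39 CPM in Hdac3f/f cells. Acod1, the enzyme that makes itaconate, was at 22.6, 17.9 and 14.1 CPM in untreated and 6256, 4956 and 5763 CPM in LPS-treated Hdac3f/f libraries, and 37.8, 38 and 43.3 CPM in untreated and 3495, 2808 and 3519 CPM in LPS-treated Lyz2-Cre libraries. Untreated Lyz2-Cre libraries lay above and LPS-treated ones below their Hdac3f/f counterparts, without overlap. The interaction of Acod1 was -1.91 ± 0.23 (adjusted p = 0.000783, edgeR). Ass1, which regenerates arginine, had means of 36.8 ± 6.52 (untreated) and 578 ± 98.5 CPM (LPS) in Hdac3f/f and 47.8 ± 5.82 and 338 ± 51.8 CPM in Lyz2-Cre cells. The interaction of Ass1 was -1.15 ± 0.23. Slc7a11, the cystine transporter (-0.12 ± 0.35, adjusted p = 0.876), and Slc7a2, an arginine transporter (0.64 ± 0.34, adjusted p = 0.284), were not called.

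Cell cycle genes formed the main group on the other side. Of 30 genes of DNA replication and S phase 11 were called higher and none lower (2 lower at an unadjusted p under 0.05, 1 by the DESeq2 test), against 2.58% of all genes higher, with a median interaction of 0.74. In Hdac3f/f cells the median response was -1.18 and 23 of 30 fell (32.1% of all genes did), while in Lyz2-Cre cells it was -0.48 and 15 fell (27.7% of all genes did). E2f1 (ENSMUSG00000027490, mm10 chromosome 2, 154559407 to 154569892), the transcription factor that drives entry into S phase, was at 38.2, 49.4 and 57.5 CPM in untreated and 18.4, 25.6 and 21.6 CPM in LPS-treated Hdac3f/f libraries, and 30.5, 29.5 and 31.6 CPM in untreated and 28.8, 30.6 and 27.8 CPM in LPS-treated Lyz2-Cre libraries. LPS lowered it in Hdac3f/f cells, while the Lyz2-Cre groups stayed within 27.8 to 31.6 CPM, between the Hdac3f/f groups; the interaction was 1.07 ± 0.21 (adjusted p = 0.00971). Rrm2, the small subunit of ribonucleotide reductase, was at 9.41, 9.54 and 11.9 CPM in untreated and 3.54, 3.51 and 3.85 CPM in LPS-treated Hdac3f/f libraries, and 5.3, 6.32 and 5.52 CPM in untreated and 4.29, 3.99 and 4.77 CPM in LPS-treated Lyz2-Cre libraries. Again both Lyz2-Cre groups lay between the Hdac3f/f groups, with an interaction of 1.10 ± 0.23 (adjusted p = 0.0118). Cdc6, which loads the replicative helicase, had means of 5.27 ± 0.512 (untreated) and 1.49 ± 0.104 CPM (LPS) in Hdac3f/f and 3.72 ± 0.779 and 2.79 ± 0.377 CPM in Lyz2-Cre cells. The interaction of Cdc6 was 1.40 ± 0.30. Mcm3, a subunit of that helicase, had means of 50.3 ± 6.46 (untreated) and 19.2 ± 1.41 CPM (LPS) in Hdac3f/f and 42.2 ± 1.56 and 26.5 ± 1.65 CPM in Lyz2-Cre cells. The interaction was 0.72 ± 0.16.

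Tk1, Mcm4, Uhrf1, Mcm7, Rrm1, Prim1 and Mcm5 were called higher as well. Pcna (0.44 ± 0.25, adjusted p = 0.32) and Cdt1 (-0.91 ± 0.27, adjusted p = 0.0565) had the highest levels among members not called. In this list 12 of 30 genes were lower in untreated Lyz2-Cre cells (6.66% of all genes were) and 6 higher with LPS (15.7% of all genes were). The count of 11 fell to 4 without Hdac3f/f untreated replicate 2, to 5 without untreated Lyz2-Cre replicate 1, to 6 without Hdac3f/f untreated replicate 3 and to 7 without untreated Lyz2-Cre replicates 2 or 3 or Lyz2-Cre LPS replicate 2, and it was 18 with library totals alone. Of 26 genes of mitosis and G2/M 3 were called higher, the motor genes Kif23 (1.26 ± 0.30) and Kif11 (1.30 ± 0.34) and the topoisomerase gene Top2a (1.19 ± 0.31), and the median was 0.70. No member was called by edgeR without untreated Lyz2-Cre replicate 3, Hdac3f/f untreated replicate 2 or Hdac3f/f LPS replicate 3, 1 was called without Hdac3f/f untreated replicate 1, untreated Lyz2-Cre replicate 1 or Lyz2-Cre LPS replicate 3, and 5 members were called without Hdac3f/f LPS replicate 1.

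NRF2 targets, which defend against oxidants, were another list with calls in the higher direction only. Of 15 tested 4 were called higher (Gclm, Nqo1, Gclc and Me1), and the median was 0.30. Gclm (ENSMUSG00000028124, mm10 chromosome 3, 122245557 to 122270732), the modifier subunit of the enzyme that limits glutathione synthesis, was at 84.9, 98.8 and 115 CPM in untreated and 152, 161 and 156 CPM in LPS-treated Hdac3f/f libraries, and 69.6, 75.6 and 88.2 CPM in untreated and 277, 218 and 223 CPM in LPS-treated Lyz2-Cre libraries. Untreated Lyz2-Cre levels overlapped the Hdac3f/f ones and every LPS-treated Lyz2-Cre library lay above every LPS-treated Hdac3f/f library, with an interaction of 0.97 ± 0.19 (adjusted p = 0.00827). Gclc, the catalytic subunit of the same enzyme, fell in Hdac3f/f cells by 0.35 and rose in Lyz2-Cre cells by 0.52 on the log2 scale, with an interaction of 0.87 ± 0.20. Nqo1, a quinone reductase, had means of 6.99 ± 0.368 (untreated) and 9.95 ± 0.959 CPM (LPS) in Hdac3f/f and 5.88 ± 0.507 and 16.9 ± 2.3 CPM in Lyz2-Cre cells. The interaction of Nqo1 was 1.01 ± 0.20. Prdx1 (-0.08 ± 0.25) and Hmox1 (-0.15 ± 0.18), the members of highest level, were not called (adjusted p = 0.893 and 0.686). The 4 fell to 2 without Hdac3f/f LPS replicate 3, untreated Lyz2-Cre replicate 3 or LPS-treated Lyz2-Cre replicates 1 or 2, and were 8 with library totals alone.

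Among genes that LPS lowered and that reached 50 CPM in a group, Glul (ENSMUSG00000026473, mm10 chromosome 1, 153899944 to 153909723), the glutamine synthetase, had the lowest p of those called higher. It was at 409, 327 and 383 CPM in untreated and 26.5, 30.4 and 33.9 CPM in LPS-treated Hdac3f/f libraries, and 239.5, 259 and 255 CPM in untreated and 61.7, 51.6 and 50.6 CPM in LPS-treated Lyz2-Cre libraries. It fell in both genotypes, from a higher level and to a lower one in Hdac3f/f cells, and the interaction was 1.42 ± 0.17 (adjusted p = 0.000691). Tfrc, the transferrin receptor, had means of 165 ± 15.6 (untreated) and 31.5 ± 6.95 CPM (LPS) in Hdac3f/f and 102 ± 9.86 and 50.8 ± 4.92 CPM in Lyz2-Cre cells. The interaction of Tfrc was 1.38 ± 0.21. Ncoa4, the receptor that takes ferritin to the lysosome, had means of 203 ± 10.03 (untreated) and 46.3 ± 5.78 CPM (LPS) in Hdac3f/f and 160.4 ± 14.5 and 72.7 ± 7.88 CPM in Lyz2-Cre cells. The interaction of Ncoa4 was 0.99 ± 0.16. Arrb1, beta-arrestin 1, had means of 269 ± 27.1 (untreated) and 41.1 ± 8.02 CPM (LPS) in Hdac3f/f and 251 ± 11.7 and 91.3 ± 13.4 CPM in Lyz2-Cre cells. The interaction was 1.25 ± 0.21. Paics, an enzyme of purine synthesis, had means of 63.5 ± 2.59 (untreated) and 21.6 ± 3.41 CPM (LPS) in Hdac3f/f and 51.4 ± 2.8 and 33.1 ± 1.08 CPM in Lyz2-Cre cells. The interaction of Paics was 0.92 ± 0.16. Each of these 5 was called in all 19 other settings.

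A few lowered genes went further down in Lyz2-Cre cells. Loxl3, a lysyl oxidase relative, was at 93.8, 68.4 and 65 CPM in untreated and 33, 39.1 and 54.4 CPM in LPS-treated Hdac3f/f libraries, and 101, 80.2 and 49 CPM in untreated and 9.42, 9.3 and 9.66 CPM in LPS-treated Lyz2-Cre libraries. Untreated libraries overlapped, while LPS-treated Lyz2-Cre libraries lay between 9.30 and 9.66 CPM, below all others, and the interaction was -2.18 ± 0.35 (adjusted p = 0.00365). Slc29a3, a lysosomal nucleoside transporter, had means of 234 ± 20.05 (untreated) and 97.8 ± 16 CPM (LPS) in Hdac3f/f and 343 ± 27.5 and 67.8 ± 3.79 CPM in Lyz2-Cre cells. The interaction of Slc29a3 was -1.08 ± 0.17. Apobec1, a cytidine deaminase, had means of 295 ± 8.68 (untreated) and 108 ± 6.87 CPM (LPS) in Hdac3f/f and 363 ± 13.9 and 78 ± 8.01 CPM in Lyz2-Cre cells and an interaction of -0.77 ± 0.14, which was not called with library totals alone.

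Genes that LPS raised more in Lyz2-Cre cells were few. Itgax (ENSMUSG00000030789, mm10 chromosome 7, 128129547 to 128150657), the integrin chain CD11c, was at 25.2, 31.2 and 27.3 CPM in untreated and 36.7, 33.4 and 37 CPM in LPS-treated Hdac3f/f libraries, and 97.4, 98.1 and 65.9 CPM in untreated and 438, 444 and 418 CPM in LPS-treated Lyz2-Cre libraries. Lyz2-Cre libraries lay above all Hdac3f/f libraries already without LPS and rose to at least 418 CPM with it, while Hdac3f/f cells moved by 0.35 ± 0.14; the interaction was 1.96 ± 0.20 (adjusted p = 0.000347). Itgad (ENSMUSG00000070369, mm10 chromosome 7, 128154376 to 128223816), the CD11d chain, whose gene lies next to Itgax on chromosome 7, was at 3.17, 4.04 and 4.81 CPM in untreated and 2.43, 2.65 and 3.7 CPM in LPS-treated Hdac3f/f libraries, and 3.64, 3.83 and 4.03 CPM in untreated and 22.7, 16.4 and 13.4 CPM in LPS-treated Lyz2-Cre libraries. Untreated levels were close and the LPS-treated Lyz2-Cre libraries stood alone, at 13.4 CPM or more, with an interaction of 2.64 ± 0.33 (adjusted p = 0.00093). Itgam, the CD11b chain from the same stretch of chromosome 7 and chosen here after its values were seen, had means of 113 ± 7.41 (untreated) and 184 ± 35.3 CPM (LPS) in Hdac3f/f and 48.6 ± 1.41 and 74.4 ± 1.49 CPM in Lyz2-Cre cells and an interaction of -0.09 ± 0.17 (adjusted p = 0.812).

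Serpinb2 (ENSMUSG00000062345, mm10 chromosome 1, 107511423 to 107535478), the plasminogen activator inhibitor 2, was at 4.77, 1.31 and 1.59 CPM in untreated and 308, 252 and 197 CPM in LPS-treated Hdac3f/f libraries, and 4.03, 2.85 and 2.64 CPM in untreated and 1236, 1486 and 1338 CPM in LPS-treated Lyz2-Cre libraries. Its untreated groups overlapped, its LPS-treated groups did not, and the interaction was 2.14 ± 0.49 (adjusted p = 0.0199); the call was lost without untreated Lyz2-Cre replicate 2 or 3. Pcdh7, a protocadherin, had means of 7.64 ± 0.911 (untreated) and 72.9 ± 4.35 CPM (LPS) in Hdac3f/f and 2.85 ± 0.793 and 79.5 ± 3.85 CPM in Lyz2-Cre cells and an interaction of 1.54 ± 0.23, reached from a lower untreated level to a like level with LPS. Calcrl, the receptor for calcitonin gene-related peptide and adrenomedullin, showed the same pattern, with means of 21.7 ± 0.452 (untreated) and 87.9 ± 29.3 CPM (LPS) in Hdac3f/f and 10.7 ± 1.14 and 117 ± 7.23 CPM in Lyz2-Cre cells. The interaction of Calcrl was 1.43 ± 0.26. Gys1, glycogen synthase, had means of 18.5 ± 0.831 (untreated) and 43.9 ± 4.08 CPM (LPS) in Hdac3f/f and 15 ± 0.852 and 66.2 ± 6.57 CPM in Lyz2-Cre cells. The interaction was 0.89 ± 0.16.

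Further genes with the highest interactions stood at lower levels. Gpr183, the receptor for oxysterols that guides immune cells, had means of 7.73 ± 1.77 (untreated) and 4.64 ± 1.33 CPM (LPS) in Hdac3f/f and 2.23 ± 0.862 and 6.46 ± 1.83 CPM in Lyz2-Cre cells. The interaction of Gpr183 was 2.27 ± 0.44. Ccr3, the eotaxin receptor, had means of 6.4 ± 1.37 (untreated) and 4.37 ± 0.868 CPM (LPS) in Hdac3f/f and 1.66 ± 0.422 and 4.74 ± 1.22 CPM in Lyz2-Cre cells. The interaction of Ccr3 was 2.06 ± 0.38. Arap2, a GTPase-activating protein, had means of 5.07 ± 0.748 (untreated) and 1.66 ± 0.677 CPM (LPS) in Hdac3f/f and 2.76 ± 0.295 and 4.0 ± 0.816 CPM in Lyz2-Cre cells. The interaction of Arap2 was 2.13 ± 0.38. Fignl1, a factor of homologous recombination, had means of 7.14 ± 0.462 (untreated) and 1.3 ± 0.172 CPM (LPS) in Hdac3f/f and 4.14 ± 0.816 and 3.0 ± 0.246 CPM in Lyz2-Cre cells. The interaction was 1.99 ± 0.28. Fmo5, a flavin monooxygenase, had means of 5.93 ± 0.801 (untreated) and 0.319 ± 0.0613 CPM (LPS) in Hdac3f/f and 3.36 ± 0.278 and 0.861 ± 0.0943 CPM in Lyz2-Cre cells. The interaction of Fmo5 was 2.24 ± 0.36. Each of these 5 calls held in all 19 other settings. Abcd2, a peroxisomal fatty acid transporter, had the highest value, 3.57 ± 0.84 (adjusted p = 0.0228), but only 2 counts in the 3 LPS-treated Hdac3f/f libraries together, so the fitted value is imprecise. By counts it was lower with LPS in Hdac3f/f cells by a ratio of 142 (95% interval 38.9 to 1172, counting error only). Its call, and those of Il1f9 (2.83 ± 0.65), Nlrp1b (2.51 ± 0.58) and Rgs18 (2.24 ± 0.50), were lost in between 3 and 6 of 19 other settings.

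At the opposite end, Lipg, the endothelial lipase, was at 2.34, 1.12 and 0.614 CPM in untreated and 191, 186 and 318 CPM in LPS-treated Hdac3f/f libraries, and 1.17, 3.78 and 2.69 CPM in untreated and 15, 15.1 and 25.2 CPM in LPS-treated Lyz2-Cre libraries. LPS-treated Lyz2-Cre libraries reached 15.0 to 25.2 CPM where those of Hdac3f/f cells reached at least 186 CPM, and the interaction was -4.53 ± 0.61 (adjusted p = 0.00134). Il23r (ENSMUSG00000049093, mm10 chromosome 6, 67422932 to 67491855), the interleukin 23 receptor chain, was at 0.13, 0 and 0.102 CPM in untreated and 9.38, 7.25 and 12.8 CPM in LPS-treated Hdac3f/f libraries, and 1.41, 1.47 and 1.04 CPM in untreated and 14.8, 14.7 and 12.5 CPM in LPS-treated Lyz2-Cre libraries. Untreated Lyz2-Cre libraries lay above untreated Hdac3f/f libraries by 3.94 ± 0.49, and with LPS the difference was 0.51 ± 0.25 (adjusted p = 0.125); the interaction was -3.42 ± 0.57 (adjusted p = 0.00389). Lta, lymphotoxin alpha, had means of 0.0784 ± 0.0242 (untreated) and 14 ± 2.78 CPM (LPS) in Hdac3f/f and 0.539 ± 0.105 and 11 ± 0.786 CPM in Lyz2-Cre cells and an interaction of -3.0 ± 0.43, again with higher untreated levels in Lyz2-Cre cells. St6galnac2, a sialyltransferase, stayed at or under 0.311 CPM in all 6 Lyz2-Cre libraries while Hdac3f/f libraries held 6.19 to 41.1 CPM, with an interaction of -3.70 ± 0.92. Trp53i11 had means of 2.88 ± 2.01 (untreated) and 39.3 ± 8.6 CPM (LPS) in Hdac3f/f and 6.21 ± 4.43 and 8.79 ± 2.43 CPM in Lyz2-Cre cells. The interaction of Trp53i11 was -3.25 ± 0.80. Calls for these 2 were lost in 6 and 9 of 19 other settings. Flt4, the receptor VEGFR3 of lymphatic endothelium, had means of 2.89 ± 0.963 (untreated) and 15.1 ± 5.51 CPM (LPS) in Hdac3f/f and 6.83 ± 1.76 and 3.41 ± 1.8 CPM in Lyz2-Cre cells. The interaction of Flt4 was -3.37 ± 0.57.

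Some genes responded in opposite directions. For 20 genes called higher LPS lowered the level in Hdac3f/f and raised it in Lyz2-Cre cells, each response called, and for 36 genes called lower the directions were the reverse. Dock5 (ENSMUSG00000044447, mm10 chromosome 14, 67752135 to 67933442), an activator of the GTPase Rac, was at 19.4, 22.5 and 17.8 CPM in untreated and 9.52, 7.02 and 9.72 CPM in LPS-treated Hdac3f/f libraries, and 13.6, 15.7 and 15.4 CPM in untreated and 26.4, 22.5 and 20.4 CPM in LPS-treated Lyz2-Cre libraries. It fell in Hdac3f/f cells by 1.18 on the log2 scale and rose in Lyz2-Cre cells by 0.64, with an interaction of 1.82 ± 0.21 (adjusted p = 0.000643). Fanca (ENSMUSG00000032815, mm10 chromosome 8, 123268300 to 123318576), a subunit of the Fanconi anaemia complex of DNA repair, was at 7.55, 6.72 and 6.95 CPM in untreated and 9.17, 12.1 and 15.8 CPM in LPS-treated Hdac3f/f libraries, and 19.4, 15.5 and 16.7 CPM in untreated and 4.23, 5.55 and 5.46 CPM in LPS-treated Lyz2-Cre libraries. It rose in Hdac3f/f and fell in Lyz2-Cre cells, with an interaction of -2.56 ± 0.27 (adjusted p = 0.000352). Cd300lf, an inhibitory receptor of myeloid cells, had means of 42.4 ± 9.46 (untreated) and 72.7 ± 33.6 CPM (LPS) in Hdac3f/f and 102 ± 23.4 and 33.1 ± 12.8 CPM in Lyz2-Cre cells. The interaction was -2.40 ± 0.45.

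Lipid genes of the LXR and PPAR receptors split, with 3 called higher and 4 lower of 21 tested (median -0.24, or 0.01 with library totals alone). Cd36, the scavenger receptor, was at 484, 583 and 613 CPM in untreated and 268, 238 and 188 CPM in LPS-treated Hdac3f/f libraries, and 566, 500.3 and 442 CPM in untreated and 341, 527 and 477 CPM in LPS-treated Lyz2-Cre libraries; LPS lowered it in Hdac3f/f cells and its response was -0.16 ± 0.17 in Lyz2-Cre cells, with an interaction of 1.11 ± 0.25 (adjusted p = 0.0171). Lpl, lipoprotein lipase (0.90 ± 0.23), and Pparg, the nuclear receptor itself (0.88 ± 0.24), were called higher too. Of these 3, 0 were called without Hdac3f/f untreated replicate 2, and 1 without Hdac3f/f untreated replicate 3, Hdac3f/f LPS replicates 2 or 3, untreated Lyz2-Cre replicates 1 or 3 or Lyz2-Cre LPS replicate 3. Abcg1, a cholesterol exporter, had means of 145 ± 14.1 (untreated) and 136 ± 30.1 CPM (LPS) in Hdac3f/f and 195 ± 14.4 and 84 ± 6.04 CPM in Lyz2-Cre cells. The interaction of Abcg1 was -1.12 ± 0.20. Fabp4, a fatty acid carrier, had means of 133 ± 15.6 (untreated) and 140.2 ± 21 CPM (LPS) in Hdac3f/f and 142 ± 51.2 and 48.9 ± 3.61 CPM in Lyz2-Cre cells (-1.61 ± 0.29), and Nr1h3, which encodes LXR alpha, means of 90.1 ± 18.9 (untreated) and 358 ± 37.2 CPM (LPS) in Hdac3f/f and 95.5 ± 6.78 and 189 ± 18.3 CPM in Lyz2-Cre cells (-1.01 ± 0.20). Apoe, the lipid carrier of the cholesterol export pathway and the most abundant member, had means of 21568 ± 2134 (untreated) and 37845 ± 6771 CPM (LPS) in Hdac3f/f and 31321 ± 708 and 27738 ± 604 CPM in Lyz2-Cre cells and an interaction of -0.99 ± 0.21 (adjusted p = 0.0129).

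Energy metabolism held calls in both directions, several of which were lost in other settings. Over all genes 2.58% were called higher and 5.54% lower. The glycolysis and fatty acid oxidation lists lay above these shares in both directions in the reported fit. Of 28 oxidative phosphorylation genes 1, the cytochrome c gene Cycs, was called lower, close to the share over all genes, and its adjusted p missed 0.05 in 7 of 19 other settings, which include leaving out untreated Lyz2-Cre replicate 1. Of 23 glycolysis and hypoxia genes 2 were called higher (Bnip3 and Gpi1) and 3 lower (Hk1, Pfkfb3 and Pfkl), and 1 gene was called lower in 8 of the 12 fits that left out 1 library. Calls for Gpi1 and Pfkfb3 were each lost in 11 of 19 other settings, that for Pfkl in 14 and that for Bnip3 in 5. Without untreated Lyz2-Cre replicate 1 this list held 1 higher and 1 lower call. Fatty acid oxidation gave 3 higher (Acadm, Hadhb and Abcd2) and 3 lower (Acsl1, Cpt1a and Acaa1a) of 24. With library totals alone these counts were 6 and 0. With 1 library left out, between 1 and 5 were called higher. Lower calls fell to 1 without Hdac3f/f untreated replicate 2, Hdac3f/f LPS replicate 3, untreated Lyz2-Cre replicates 1 or 2 or Lyz2-Cre LPS replicates 1 or 2. The call for Cpt1a was lost in 8 and that for Acaa1a in 10 of 19 other settings. No lysosome or proton pump gene of 27 was called by edgeR (1 higher and 2 lower at an unadjusted p under 0.05, and 1 and 1 by the DESeq2 test). Cholesterol synthesis gave 1 lower call, Mvd, of 22, whose adjusted p missed 0.05 in 11 of 19 other settings: library totals alone, the replicate block and 9 of the 12 fits without 1 library. In none of these lists did the median lie further than 0.17 from 0 on the TMM scale.

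Transcription factors, taken from a family column of the table after values were seen, numbered 876 among the tested genes, of which 20 were called higher and 54 lower, close to the shares over all genes (2.58% and 5.54%). Jdp2, an AP-1 family repressor, was at 21.8, 15.2 and 18.3 CPM in untreated and 88.2, 114 and 97.2 CPM in LPS-treated Hdac3f/f libraries, and 25, 19.3 and 25.3 CPM in untreated and 28.4, 28.8 and 34.7 CPM in LPS-treated Lyz2-Cre libraries. Its LPS response was 0.40 ± 0.16 in Lyz2-Cre and 2.44 ± 0.16 in Hdac3f/f cells, with an interaction of -2.04 ± 0.22 (adjusted p = 0.000469). Batf2, a basic leucine zipper factor, had means of 16.9 ± 0.246 (untreated) and 501 ± 96.5 CPM (LPS) in Hdac3f/f and 23.8 ± 3.7 and 218 ± 17.1 CPM in Lyz2-Cre cells. The interaction of Batf2 was -1.69 ± 0.21. Arid5a, a protein that stabilises cytokine transcripts, had means of 14.4 ± 1.54 (untreated) and 196 ± 63.3 CPM (LPS) in Hdac3f/f and 24.2 ± 3.07 and 74.5 ± 9.06 CPM in Lyz2-Cre cells. The interaction of Arid5a was -2.14 ± 0.29. On the higher side Mxd4, a partner of MAX that opposes MYC, had means of 83.3 ± 6.86 (untreated) and 11.8 ± 1.21 CPM (LPS) in Hdac3f/f and 45 ± 3.56 and 12 ± 0.63 CPM in Lyz2-Cre cells and an interaction of 0.91 ± 0.16, and Gtf2i had means of 111 ± 10.1 (untreated) and 11.5 ± 1.82 CPM (LPS) in Hdac3f/f and 92.6 ± 2.79 and 19.5 ± 2.76 CPM in Lyz2-Cre cells. The interaction was 1.02 ± 0.19.

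Over all promoters matched, the ISRE core was more frequent before genes called lower. It stood in 13.3% of 611 windows of genes called lower, in 6.27% of 303 windows of genes called higher and in 6.59% of all 10208. Within genes raised by LPS it stood in 16.4% of 341 called lower and 9.75% of 1046 not called lower. NF-kB matches stood in 6.87%, 4.62% and 5.30% of windows of genes called lower, called higher and all, and AP-1 matches in 7.04%, 4.29% and 4.40%. The E-box (7.86%, 8.25% and 8.35%) and the CRE (1.96%, 1.98% and 2.70%) differed less between these sets in percentage points. These shares are descriptions; a match is a run of letters, not a shown binding site.

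Markers of other cells were measured beside these results. All 8 macrophage markers had counts in every group, and their sum ran from 6234 CPM (untreated Lyz2-Cre replicate 1) to 22153 CPM. Lyz2 is part of this sum and was at 31.0 CPM in that library, against 5181 and 5637 CPM in replicates 2 and 3. Of the other markers, Csf1r, Cd68 and Spi1 were highest in that library within its group, and Adgre1, Mertk and Itgam lowest. The summed level of 12 stromal markers had its lowest, median and highest at 360, 553 and 1717 CPM in untreated Hdac3f/f libraries, at 1028, 1406 and 2078 CPM with LPS, at 31.7, 107 and 229 CPM in untreated Lyz2-Cre libraries and at 70.6, 85.9 and 98.0 CPM with LPS, and none of the 12 was at 0 in a group. None of the 11 tested stromal markers was called by edgeR in the interaction (1 higher and 3 lower at an unadjusted p under 0.05, 0 by the DESeq2 test, up to 5 lower with 1 library left out), and 9 had values below 0. Mxra8, Ssc5d, Slco2a1 and Fads3, which are called lower with values of -3.56 ± 0.90, -3.45 ± 0.98, -3.53 ± 0.77 and -2.30 ± 0.64, follow the order of these groups, and the part of stromal transcripts in them was not tested. Mxra8, an adhesion protein, was at 8.63, 2.09 and 4.45 CPM in untreated and 6.81, 11.1 and 18.1 CPM in LPS-treated Hdac3f/f libraries, and 0.583, 2.71 and 1.89 CPM in untreated and 0.362, 0.289 and 0.376 CPM in LPS-treated Lyz2-Cre libraries, beside Col1a1, the collagen chain of fibroblasts, at 831, 174 and 283 CPM in untreated Hdac3f/f libraries and means of 429 ± 352 (untreated) and 726 ± 270.5 CPM (LPS) in Hdac3f/f and 38.7 ± 38.4 and 13.7 ± 1.41 CPM in Lyz2-Cre cells. Untreated Hdac3f/f replicate 1 is the highest of its group in both genes. Calls for Mxra8, Ssc5d and Fads3 were lost in between 10 and 12 of 19 other settings.

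Of 8 endothelial markers Kdr and Eng were called lower (-2.02 ± 0.28 and -1.16 ± 0.20). Kdr, the receptor VEGFR2, was at 32.1, 21.4 and 19.3 CPM in untreated and 76.8, 68.9 and 78.9 CPM in LPS-treated Hdac3f/f libraries, and 70.4, 82.1 and 50.5 CPM in untreated and 47.8, 55.9 and 50.9 CPM in LPS-treated Lyz2-Cre libraries. The endothelial sum lay at 168 to 217 CPM in untreated and 438 to 581 CPM in LPS-treated Hdac3f/f libraries and at 275 to 354 and 354 to 411 CPM in Lyz2-Cre libraries. Eng alone was at 311, 464 and 410 CPM in LPS-treated Hdac3f/f libraries and makes up most of the sum there. Of the 8 markers 2 rose with LPS in Hdac3f/f cells (28% of all genes did), so the sum does not follow the list as a whole. The part of endothelial transcripts in Flt4 and Lipg was not tested. Pecam1 (-0.41 ± 0.47) and Vwf (0.49 ± 0.59) of the same list were not called. Among the other lists 1 dendritic cell marker of 6 tested (Ccr7) and 1 mast cell and basophil marker of 8 (Hdc, -2.32 ± 0.31) were called lower, and no neutrophil marker of 8, T and NK cell marker of 12, B and plasma cell marker of 3 or erythroid marker of 2 was called by edgeR (3, 0, 1 and 1 of them at an unadjusted p under 0.05, all higher). The neutrophil sum ranged from 219 to 382 CPM in untreated and 131 to 302 CPM in LPS-treated Hdac3f/f libraries, and from 57.1 to 161 and 103 to 371 CPM in Lyz2-Cre libraries. In bulk libraries fewer cells of a type and less RNA per cell cannot be told apart.

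**Figure D4:**
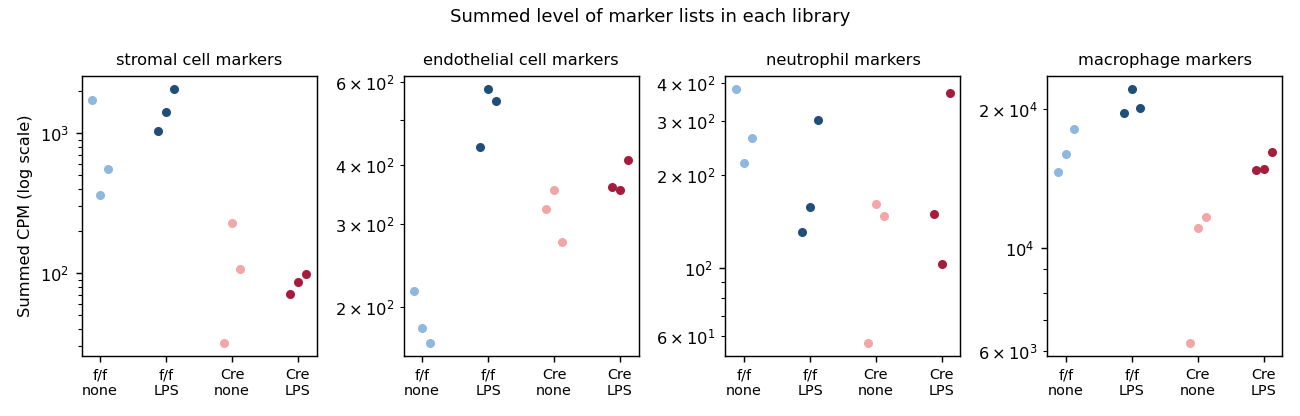
Summed CPM (log scale) of 4 marker lists in each library, by genotype and treatment. Stromal markers are lower in all 6 Lyz2-Cre libraries (at most 229 CPM) than in all 6 Hdac3f/f libraries (at least 360 CPM). Untreated Lyz2-Cre replicate 1 is the lowest for macrophage markers, a sum that includes Lyz2, which was at 31.0 CPM in that library.

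The calls were traced through 19 other settings, made of other scalings, tests and filters, a replicate block and the removal of each library in turn. In the same direction, 91 genes called higher and 332 called lower were called in all of them. Among these were Cd40, Rsad2, Il27, Sod2, Ciita, Tlr9, Itgax, Glul, E2f1, Rrm2 and Gclm, 11 of the 12 genes in the plot of levels. Without Hdac3f/f LPS replicate 1, which lay apart on the second axis of the principal component analysis, 957 genes were called higher and 1038 lower. Without Hdac3f/f untreated replicate 2 the counts were 108 and 422. Higher calls also numbered 238 without Hdac3f/f untreated replicate 3, 188 without Hdac3f/f LPS replicate 3, 161 and 154 without untreated Lyz2-Cre replicates 2 and 3, and 158 and 194 without Lyz2-Cre LPS replicates 1 and 2. Lower calls numbered 436 without Hdac3f/f LPS replicate 3, 517 without untreated Lyz2-Cre replicate 3, and 405 and 492 without Lyz2-Cre LPS replicates 1 and 2.

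**Figure D5:**
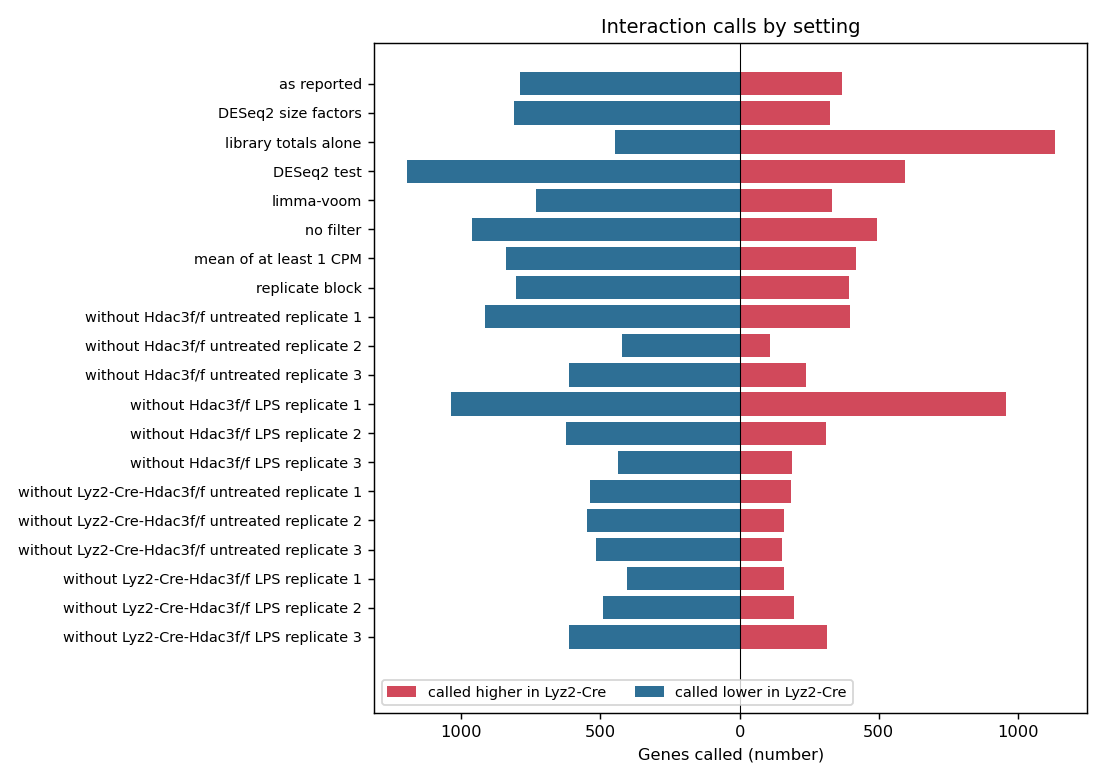
Number of genes called higher (red, right) and lower (blue, left) in the interaction under each setting; the top bar is the reported fit (369 and 791). Lower calls outnumber higher ones in every setting except library totals alone (1134 higher, 448 lower).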

How the data were processed

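RNA of 12 libraries was sequenced, 3 per group. The authors' deposited table holds counts per gene, which were used as deposited; the submitters' processing notes name TopHat2 and mm10, and the counting tool, strand setting and gene annotation release are not given in the sources used here. The table's 12 FPKM columns were not used. Genes passing filterByExpr (14286 of 54532) were scaled by TMM and fitted with edgeR 4.0.16 (R 4.3.3) as 1 model of 4 groups, tested by quasi-likelihood with Benjamini-Hochberg adjustment over all of them. The standard error is the absolute log2 value divided by the square root of F. CPM are relative to the TMM-scaled total. Counting alone limits low genes: 11 of 1160 called genes had at most 3 counts in a group. The alternatives were DESeq2 1.42.0 (size factors, test), library totals, limma 3.58.1, other filters, a replicate block and leaving out each library.

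Named genes were the targeted gene, Lyz2, the 12 highest and 12 lowest called interactions reaching 5 CPM in a group, for each list up to 4 called genes of lowest p per direction and 2 not called of highest level, up to 5 per class and direction reaching 50 CPM, and 5 per direction with opposite responses; not all of them are reported here. Members and lists were chosen with earlier results of these data known. Other genes named with values (Ifnb1, Isg15, Oas1g, Itgam and the transcription factors) were chosen after their values were seen.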

Additional observations from a re-analysis of the deposited data

Results flagged for a closer look

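Responses to LPS were called in both genotypes with opposite signs for 20 genes called higher and 36 genes called lower in the interaction. Only 10 of these genes, a selection, are named here. The interaction tests the difference between the genotypes in the response. Lower in Hdac3f/f cells and higher in Lyz2-Cre cells with LPS were Dock5 (1.82 ± 0.21), Telo2 (1.14 ± 0.20), a partner of the TOR-type kinases, Rpa2 (1.12 ± 0.19), a subunit of the single-stranded DNA-binding complex of replication, Casd1 (1.08 ± 0.19), a sialic acid acetyltransferase, and Herc3 (1.02 ± 0.20), a HECT-type ubiquitin ligase. Rpa2 had means of 12.6 ± 1.48 (untreated) and 9.82 ± 1.11 CPM (LPS) in Hdac3f/f and 7.76 ± 0.647 and 13.1 ± 0.291 CPM in Lyz2-Cre cells, and Telo2 of 14.5 ± 0.963 (untreated) and 8.45 ± 0.925 CPM (LPS) in Hdac3f/f and 12.8 ± 0.631 and 16.5 ± 2.59 CPM in Lyz2-Cre cells.

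The reverse order was found for Mxra8 (-3.56 ± 0.90), Fanca (-2.56 ± 0.27), Cd300lf (-2.40 ± 0.45), 1810032O08Rik (-2.36 ± 0.30) and Fads3 (-2.30 ± 0.64). Fads3, a relative of the fatty acid desaturases, had means of 10.8 ± 5.69 (untreated) and 22.2 ± 8.14 CPM (LPS) in Hdac3f/f and 3.57 ± 1.84 and 1.48 ± 0.46 CPM in Lyz2-Cre cells. 1810032O08Rik lies beside St6galnac2 on chromosome 11, and whether reads of the neighbours were kept apart is not known. Mxra8 and Fads3 follow the stromal marker levels given above, whose part in them was not tested.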

How the results depend on the processing

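The 369 higher calls became 1134 with library totals alone and 596 with the DESeq2 test, and ran from 108 to 957 with 1 library left out. The 791 lower calls became 448 and 1196, and ran from 405 to 1038. Lower calls among genes raised by LPS (444) became 219 with library totals alone and ran from 270 to 518 with 1 library left out. Higher calls among genes lowered by LPS (139) became 595 and ran from 42 to 302. The interaction of some named genes that were not called, such as Ccl3, Ptgs2 and Prdx1, changed sign under some settings, and no called interaction of a named gene did. Deviations of same-numbered libraries correlated between -0.40 and 0.22 over all groups. Within a genotype, untreated and LPS-treated libraries of the same number correlated between 0.003 and 0.20, and of different numbers between -0.36 and 0.36. Whether the replicate numbers pair the libraries is not settled by these values. With the replicate block, which gives each number the same effect in both genotypes, 392 genes were called higher and 804 lower. Depth limits genes such as Abcd2, Ssc5d and St6galnac2, with few counts in a group. With an untreated level near 0 a small change there moves the interaction by much. Leaving out a library leaves 2 in its group.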

Other observations

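Gene lists not described above are small, and their calls are given by number. Over all genes 8.12% were called, 2.58% higher and 5.54% lower. Among 22 macrophage identity genes 2 were called higher and 2 lower (median 0.01). Fcgr1, the high-affinity IgG receptor, had means of 336 ± 10.2 (untreated) and 981 ± 128 CPM (LPS) in Hdac3f/f and 421 ± 38.9 and 559.6 ± 118 CPM in Lyz2-Cre cells and an interaction of -1.13 ± 0.21, and Marco, a scavenger receptor, means of 136 ± 35.8 (untreated) and 902 ± 86.1 CPM (LPS) in Hdac3f/f and 543 ± 97 and 1567 ± 328 CPM in Lyz2-Cre cells and an interaction of -1.20 ± 0.28. Cd163, the haemoglobin scavenger receptor, was at or under 1.18 CPM in every library, with an interaction of 3.97 ± 0.70, and Cebpa, a myeloid transcription factor, had means of 639 ± 68.7 (untreated) and 91.1 ± 36 CPM (LPS) in Hdac3f/f and 289 ± 22.7 and 106 ± 16.3 CPM in Lyz2-Cre cells and an interaction of 1.36 ± 0.32. Adgre1, which encodes F4/80, was not called (0.30 ± 0.22, adjusted p = 0.465, edgeR). Of 13 alternative activation genes Clec7a, the beta-glucan receptor dectin-1, was called higher (0.75 ± 0.20), and Tgm2, transglutaminase 2 (-1.35 ± 0.27), and Il4ra, the interleukin 4 receptor chain (-0.98 ± 0.21), were called lower. The calls for Clec7a, Marco and Cebpa were lost in 9, 8 and 4 of 19 other settings. Of 18 matrix protease genes Mmp14 (-0.92 ± 0.17) and Plau, the urokinase gene (-0.96 ± 0.18), were called lower and Serpinb2, an inhibitor of urokinase, higher.

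Among 20 genes of endoplasmic reticulum and integrated stress 3 were called lower: Ppp1r15a, the phosphatase subunit GADD34 (-1.47 ± 0.26), Atf4 (-0.69 ± 0.16) and its target Trib3 (-1.07 ± 0.29). The calls for Atf4 and Trib3 were lost in 7 and 11 of 19 other settings. Lower calls in this list fell to 1 without Hdac3f/f untreated replicate 2, Hdac3f/f LPS replicates 2 or 3, untreated Lyz2-Cre replicates 1 or 3 or Lyz2-Cre LPS replicates 1 or 2, and were 5 with no filter on low counts. Of 18 eicosanoid genes Ptges, the inducible prostaglandin E synthase (-1.26 ± 0.19), was called lower and Lta4h, the leukotriene A4 hydrolase (0.59 ± 0.16), higher, while Ptgs2, cyclooxygenase 2, was not called (0.34 ± 0.63, adjusted p = 0.804, edgeR). The call for Lta4h was lost in 12 of 19 other settings, 10 of them fits without 1 library, that without untreated Lyz2-Cre replicate 1 included. Of 18 clock genes Cry1 (-1.0 ± 0.23) was called lower and Hlf (3.60 ± 0.93) higher. The call for Cry1 was lost in 4 of 19 other settings and that for Hlf in 7 of 17. With library totals alone this list held 2 higher calls and 0 lower ones by edgeR, and with 1 library left out between 0 and 3 higher and between 0 and 2 lower. In the Hdac3 corepressor list of 13 genes, Hdac9 (1.38 ± 0.38) was called higher and the demethylase gene Kdm4a (-0.47 ± 0.12) lower, and both calls were lost in more than 10 of 19 other settings. Of 16 p53 targets Trp53inp1 (1.33 ± 0.25) was called higher, 2 were called higher without untreated Lyz2-Cre replicate 1, and 4 with library totals alone or without Hdac3f/f LPS replicate 1.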
